A study of Mus musculus with 84 samples.

Results

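The genes described here are 10 activity-regulated effector genes (Arc, Npas4, Homer1, Nptx2, Nrn1, Vgf, Sik1, Ier2, Btg2 and Gadd45b) in the neuronal nuclei of the mouse frontal cortex. They were taken by symbol from a given list, which was chosen with earlier results of these data known. All 10 were found among the 55401 gene IDs of the count files. The mice were of the 129S6/SvEvTac strain, 12 weeks old, with no transgene named in the labels. They had received vehicle only, or DOI (2,5-dimethoxy-4-iodoamphetamine, a psychedelic agonist of the serotonin 2A receptor), and tissue was taken 24 h, 48 h or 7 days after DOI. RNA of sorted NeuN+ nuclei was analysed for 4 mice in each of these 4 groups, with the 2 libraries of a mouse summed. NeuN marks the nuclei of neurons, and the values are exonic RNA of nuclei and not of whole cells. The dose of DOI is not given in the sources used here.

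Neuronal activity opens calcium channels and receptors, and calcium and cAMP signals then reach the nucleus, where the factors CREB, SRF and MEF2 switch on immediate early genes within minutes. Some of these encode transcription factors such as Npas4. Others, the effector genes, encode proteins that act directly on synapses, are secreted, or feed back on signalling. In cortex they are widely used as marks of recent neuronal activity, and most of their transcripts are short-lived.

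Promoter sequence was available for 4 of the 10 members in the RefSeq table (build GRCm38.p6). The 250 bases before the start annotated there are shown for these 4, so that the response element letters can be read beside the levels given below. These starts differ from those of the gene spans used for counting. The Npas4 and Homer1 windows lie inside the counted spans. Capitals mark each TGACG or its reverse complement CGTCA, the core of the cAMP response element (CRE) that CREB binds, and each CArG box, the site of SRF. The full CRE, TGACGTCA, holds the core on both strands. Btg2 is at chr1:134079156-134079405 on the minus strand, Npas4 at chr19:4989972-4990221 on the minus strand, Homer1 at chr13:93303507-93303756 on the plus strand and Gadd45b at chr10:80929841-80930090 on the plus strand, each written 5′ to 3′.
Btg2: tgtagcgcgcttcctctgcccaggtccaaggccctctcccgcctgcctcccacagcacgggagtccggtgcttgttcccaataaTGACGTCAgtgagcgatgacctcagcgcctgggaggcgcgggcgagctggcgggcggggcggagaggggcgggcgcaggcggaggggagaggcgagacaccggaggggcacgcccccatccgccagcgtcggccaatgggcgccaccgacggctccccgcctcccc
Npas4: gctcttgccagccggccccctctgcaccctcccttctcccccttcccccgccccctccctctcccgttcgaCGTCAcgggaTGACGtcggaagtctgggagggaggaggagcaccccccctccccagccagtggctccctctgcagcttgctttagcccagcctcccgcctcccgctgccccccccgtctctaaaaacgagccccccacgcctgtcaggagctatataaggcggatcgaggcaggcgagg
Homer1: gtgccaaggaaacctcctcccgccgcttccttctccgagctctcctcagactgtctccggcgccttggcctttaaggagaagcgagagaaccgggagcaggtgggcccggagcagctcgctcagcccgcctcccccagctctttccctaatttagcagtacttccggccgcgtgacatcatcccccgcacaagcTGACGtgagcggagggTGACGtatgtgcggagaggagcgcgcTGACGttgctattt
Gadd45b: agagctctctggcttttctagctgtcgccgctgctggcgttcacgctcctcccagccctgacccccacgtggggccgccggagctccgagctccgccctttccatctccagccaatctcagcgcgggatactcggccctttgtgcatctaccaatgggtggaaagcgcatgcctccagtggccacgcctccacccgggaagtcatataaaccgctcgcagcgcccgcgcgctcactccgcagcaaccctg
The Btg2 window held 1 full CRE, starting 166 bases before the annotated start. Npas4 held 2 cores, at 179 and 169 bases before its start, and Homer1 held 3, at 56, 40 and 14 bases. Gadd45b held no core. It held 1 E-box of the form CANNTG and a TATAAA. A second annotated start of Homer1, at chr13:93307784-93308033, had no core in its window. Over all 32851 windows of 250 bases in the table, searched on both strands, 1.55% held the full CRE, 17.8% the core, 66.2% an E-box and 12.4% a TATAAA. None of the 5 member windows held a CArG box (1.47% of all windows). These letters describe the windows and are not evidence of binding.

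Depth was higher in vehicle (totals of 9151680 to 11517452 counts a mouse) than in any mouse at 24 h (6441396 to 8090559) or 48 h (5834248 to 7344355), and the 7 days mice spanned both (6972577 to 12354785). An 18S ribosomal RNA pseudogene took 0.00694% to 0.0101% of counts in vehicle, 0.328% to 1.57% at 24 h and from 0.523% up to 1.66% at 48 h. At 7 days it was 0.00834%, 0.633%, 0.00607% and 0.474% in mice 1 to 4. Mitochondrial genes took 0.0171% to 0.0701% in vehicle mice. Their share was 0.0621% to 0.101% in 24 h mice, 0.108% to 0.268% in 48 h mice and 0.0210% to 0.130% in 7 days mice. Summed pan-neuronal markers (5 genes) were 3762 to 6002 CPM (counts scaled by library size) over the 16 mice, against 116 to 338 CPM for 6 astrocyte markers, 160.0 to 373 CPM for 6 oligodendrocyte markers, 42.7 to 123 CPM for 6 microglia markers and 0.290 to 9.23 CPM for 5 endothelial markers. Of the astrocyte markers Aldoc had 114 to 165 CPM and Slc1a3 70.9 to 85.4 CPM in vehicle, while Gfap was at 0 in several mice. The median log2 fold change at 24 h and 48 h was -0.77 and -0.77 for oligodendrocyte markers (1 called lower at each time), -0.50 and -0.74 for microglia and -0.38 and -0.34 for astrocyte markers (none called). Pan-neuronal markers had medians of 0.42 and 0.55, with 1 called higher and 1 lower at 24 h and 2 higher and 1 lower at 48 h. Excitatory neuron markers (5 genes) summed to 198 to 340 CPM and had medians of -0.07 and -0.17, with 1 called higher at each time. Inhibitory neuron markers (7 genes) summed to 1386 to 2814 CPM and had medians of 0.24 and 0.61, with 1 called higher and 2 lower at 24 h and 1 each way at 48 h. The part of these cell types in the members' values was not tested. The 8 markers of striatal projection neurons summed to 244 to 416 CPM in vehicle mice, 169 to 287 in 24 h mice, 283 to 548 in 48 h mice and 364 to 1721 in 7 days mice. Of them 2 were called lower at 24 h and 1 higher at 48 h, and Adora2a among them was at 0 in 3 vehicle mice. In 2 of the 7 days mice, numbers 2 and 4, the sum was 1721 and 1164 CPM. In bulk nuclei, fewer cells of a type and less RNA per cell cannot be told apart.

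Against vehicle, Btg2, Arc and Ier2 were called lower at 48 h, and Vgf was called higher at 24 h and 48 h. Without vehicle mouse 3 the Arc and Ier2 calls were lost. Sik1 was also called higher at both times, with the limit given below. At 7 days no member was called. By edgeR's quasi-likelihood test over 17941 genes (Benjamini-Hochberg adjusted p below 0.05), 2 of 10 members were called at 24 h, both higher, where 24.2% of all genes were called (13.8% higher and 10.4% lower). At 48 h 5 of 10 were called, 2 higher and 3 lower, where 30.1% of all genes were (16.8% higher and 13.3% lower). Sik1, called higher at both times, entered the test only through DOI mice, since no vehicle mouse reached the level of the filter on low counts. Its calls alone therefore do not support a rise. Of the other 9 members, 1 was called at 24 h (higher) and 4 at 48 h (1 higher and 3 lower). At 7 days 0 of 10 were called, and 0% of all genes were. An unadjusted p under 0.05 was reached there by 1 member, Nrn1, and by 16.8% of all genes, and DESeq2 called 0 members and 796 of all genes. The share of these 9 was thus below the background at 24 h and above it at 48 h, on counts too small to set the members apart from other genes. Their median log2 fold change was -0.04 at 24 h, 0.04 at 48 h and -0.10 at 7 days, against 0.03, 0.02 and 0.02 for all genes. The members called at 48 h went in both directions.

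Every call at 24 h and 48 h was lost in a pair of alternative fits. With the 18S share as a covariate 0 of 10 members and 0 of all genes were called at either time (1 member at 24 h and 0 at 48 h with an unadjusted p under 0.05), and the log2 fold change changed sign for 8 members at 24 h and 5 at 48 h. With the mitochondrial share 0 members were called at either time (264 of all genes at 24 h and 0 at 48 h), with 2 and 3 members at an unadjusted p under 0.05. The log2 fold changes of the called members kept their sign in that fit. They were 0.67 for Vgf and 2.54 for Sik1 at 24 h (edgeR adjusted p = 0.330 and 0.230). At 48 h they were -2.66 for Arc, 0.53 for Vgf, 3.67 for Sik1, -1.12 for Ier2 and -1.92 for Btg2 (edgeR adjusted p of 0.329 to 0.711). The 18S share separates vehicle from 24 h and 48 h without overlap, so for those times the share and the treatment cannot be told apart. The 7 days mice, all of 1 treatment and time, differed in it: mice 1 and 3 had a share no higher than the highest vehicle mouse, and mice 2 and 4 lay far above. The first principal component of log2 CPM over all tested genes (46.0% of the variance) put mice 1 and 3 with the vehicle mice (scores of -94.6 to -69.0) and mice 2 and 4 with the 24 h and 48 h mice (22.0 to 66.2). Mice 1 and 3 were above mice 2 and 4 in 3 members, Arc (168 and 105 against 46.3 and 37.2 CPM), Btg2 (91.9 and 55.8 against 32.8 and 20.0) and Ier2 (8.38 and 5.60 against 0.784 and 1.54). They were below in 6 (Npas4, Homer1, Nptx2, Nrn1, Vgf and Sik1) and overlapped in Gadd45b. Of all genes 65.1% separated these 2 pairs of mice in either direction. With 2 mice against 2, part of the genes would do so by order alone. The part of the 18S share in the members' values was not tested.

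**Figure D1:**
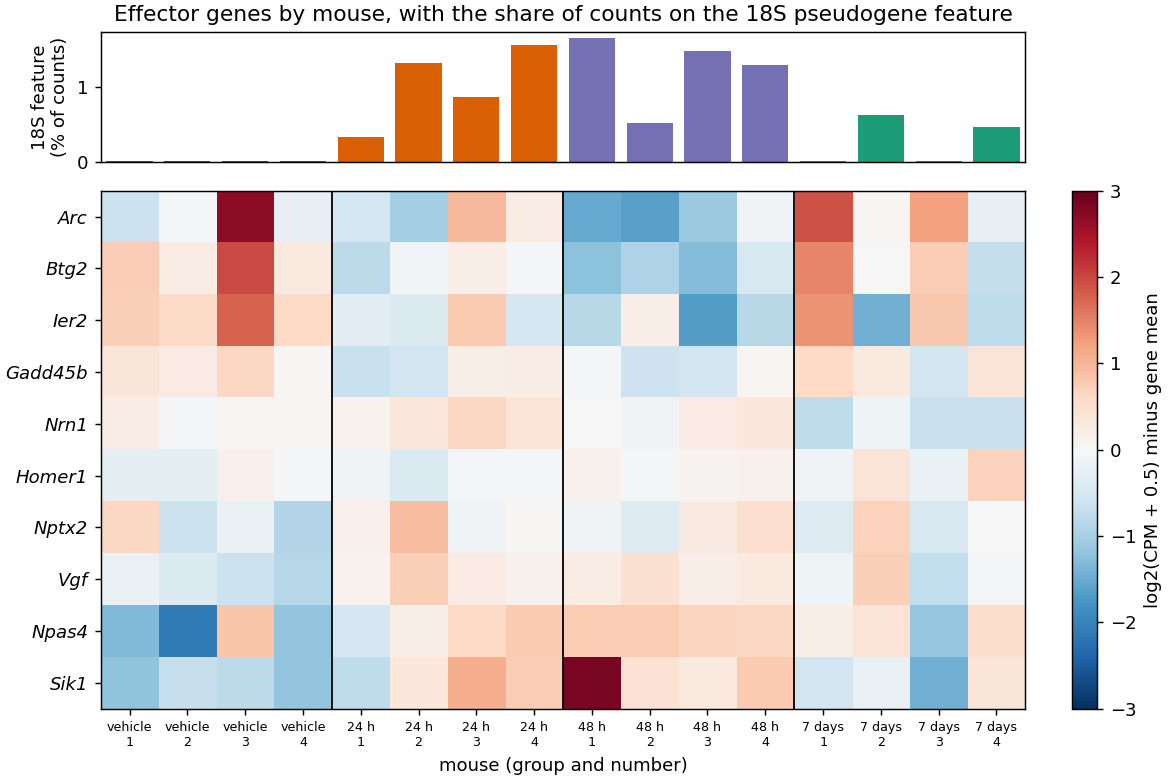
Each column is 1 mouse. The heat map shows log2(CPM + 0.5) of each effector gene minus that gene's mean over the 16 mice, and the bars show the percentage of counts on the 18S pseudogene feature. Vehicle mouse 3 and 7 days mouse 1 are the highest of their groups for Arc, Btg2 and Ier2, and 48 h mouse 1 is the highest for Sik1.

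Levels can be compared between genes only per length. In vehicle, Arc had the highest mean, 32.6 ± 41.6 CPM per kb of exon (SD, n = 4), followed by Btg2 at 24.4 ± 16.3, Homer1 at 11.5 ± 1.65, Gadd45b at 7.79 ± 1.40, Nrn1 at 7.74 ± 0.636, Ier2 at 4.25 ± 2.11, Vgf at 2.42 ± 0.514, Nptx2 at 2.29 ± 1.24, Npas4 at 0.338 ± 0.460 and Sik1 at 0.0403 ± 0.0253. The first place of Arc rested on vehicle mouse 3: without it Arc had 11.8 ± 2.47 and Btg2 16.4 ± 3.38 CPM per kb (SD, n = 3). Arc and Btg2 overlapped over the vehicle mice, as did Gadd45b and Nrn1, Nrn1 and Ier2, Vgf and Nptx2, and Npas4 and Sik1. Btg2 and Homer1, Homer1 and Gadd45b, Ier2 and Vgf, and Nptx2 and Npas4 did not overlap. The 2 least abundant members are therefore the transcription factor and the kinase, and their values rest on few counts.

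Arc (chr15:74669083-74672570, minus strand) encodes a protein of dendrites that draws AMPA receptors into the cell through the endocytic machinery. Its level in the 4 vehicle mice was 28.2, 43.2, 290.0 and 37.2 CPM. At 24 h the mice had 30.6, 21.7, 88.4 and 52.1 CPM. At 48 h they had 15.4, 14.1, 20.3 and 41.6 CPM. At 7 days they had 168, 46.3, 105 and 37.2 CPM. Vehicle mouse 3 was far above its group, and each DOI group overlapped vehicle. Both libraries of that mouse held it, with 1644 and 1308 Arc counts. At 48 h Arc fell by 2.12 on the log2 scale (SE 0.68, edgeR adjusted p = 0.0270), from a vehicle mean of 99.7 ± 127 CPM to 22.8 ± 12.8 (SD, n = 4 each). Without vehicle mouse 3 the fall at 48 h was 0.66 and no longer called (adjusted p = 0.353). The call was also lost without 48 h mouse 1, 2 or 3 (adjusted p of 0.0665 to 0.0771), with limma voom (0.0658) and with the replicate block (0.0592), so 4 of 8 fits that each left out 1 mouse kept it. At 24 h the log2 fold change was -1.05 (SE 0.66, adjusted p = 0.251) and without that mouse 0.42. At 7 days it was -0.16 (SE 0.65, adjusted p = 0.920) and without that mouse 1.30 (adjusted p = 0.275). The direction of the Arc difference at 24 h and at 7 days thus rested on vehicle mouse 3, and only at 48 h was it lower with and without that mouse.

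Homer1 (chr13:93299635-93405129, plus strand) encodes a scaffold that links group I metabotropic glutamate receptors to their partners, and its short form Homer1a is the activity-induced one. The gene-level count holds both forms and cannot separate them. Vehicle mice had 121, 123, 163 and 143 CPM, 24 h mice 138, 109.5, 141 and 145 CPM, 48 h mice 162, 143, 155 and 159.8 CPM, and 7 days mice 138, 191, 128 and 238 CPM. The 4 groups overlapped and no comparison was called, with log2 fold changes of -0.04 (SE 0.19), 0.17 (SE 0.19) and 0.34 (SE 0.19) and adjusted p of 0.883, 0.514 and 0.383. The 7 days mice 2 and 4 were the highest of all 16, and they were also the mice with the highest summed striatal markers (1721 and 1164 CPM), whose part in the Homer1 level was not tested.

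**Figure D2:**
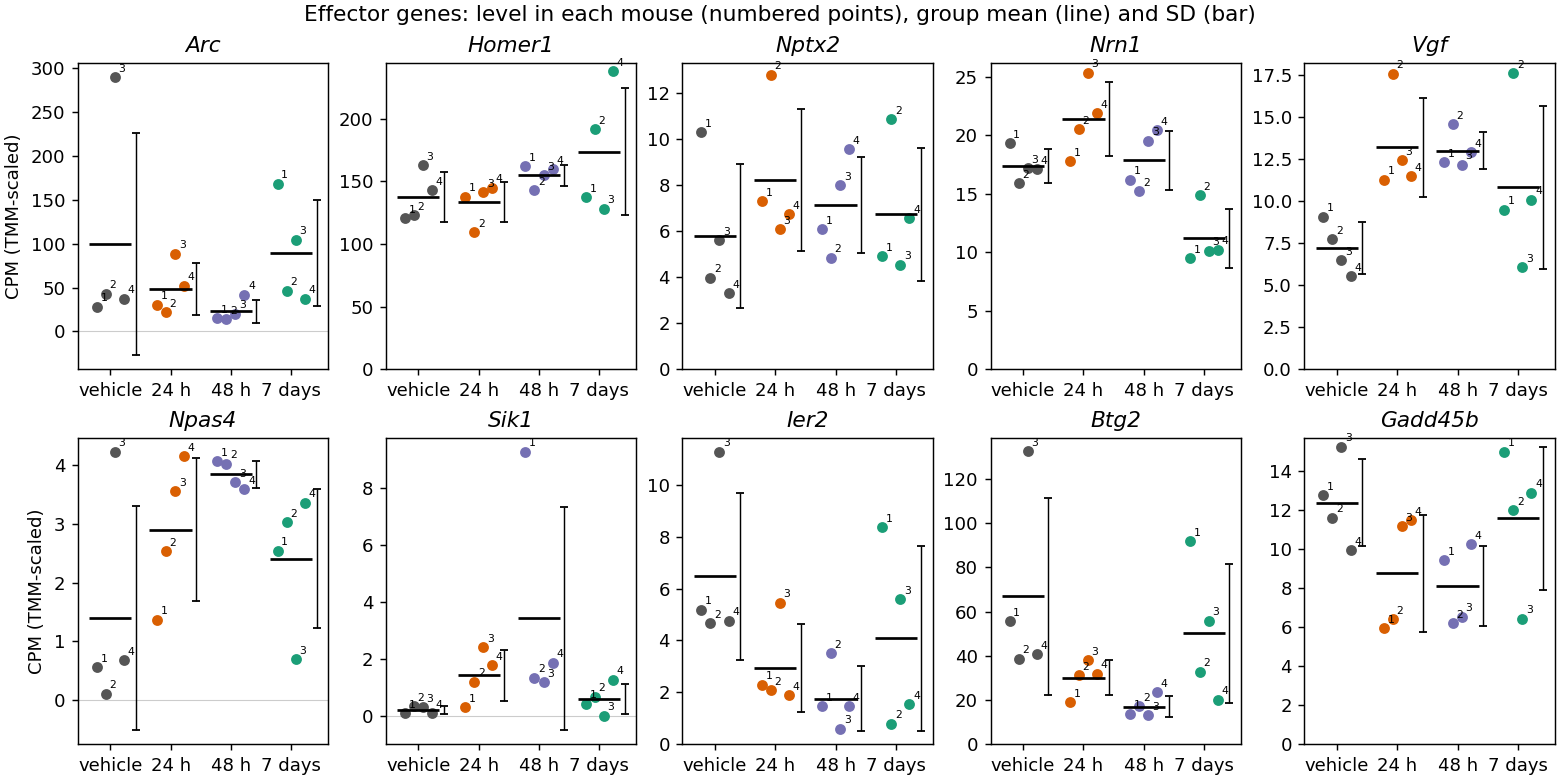
Level of each effector gene in TMM-scaled CPM on linear axes, 1 numbered point per mouse, with the group mean as a line and the SD as a bar beside it. Vgf is higher in all 4 mice at 24 h and at 48 h than in any vehicle mouse, Btg2 is lower, and Nrn1 is lower in all 4 mice at 7 days than in any vehicle mouse.

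Of the secreted and surface proteins, Vgf rose at 24 h and 48 h, and Nrn1 was at its lowest at 7 days. Vgf (chr5:137026392-137033351, plus strand), a neuropeptide precursor that neurotrophins induce, had 9.06, 7.73, 6.48 and 5.55 CPM in vehicle. The 24 h mice had 11.3, 17.6, 12.4 and 11.5 CPM, and the 48 h mice 12.3, 14.6, 12.2 and 12.9 CPM. The 7 days mice had 9.48, 17.6, 6.07 and 10.1 CPM. All 8 mice at 24 h and 48 h were above all 4 vehicle mice, and 7 days overlapped both. The log2 fold change was 0.87 at 24 h (SE 0.30, edgeR adjusted p = 0.0434) and 0.85 at 48 h (SE 0.30, adjusted p = 0.0415), a rise of 1.83-fold and 1.80-fold. At 7 days it was 0.58 (SE 0.30, adjusted p = 0.337). The calls were close to the threshold: leaving out any 1 of the 8 mice gave an adjusted p of 0.0537 to 0.132 at 24 h and 0.0510 to 0.113 at 48 h, with log2 fold changes of 0.70 to 1.00 and 0.74 to 0.98.

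Nrn1 (chr13:36725361-36735131, minus strand) encodes neuritin, a membrane-anchored protein that promotes neurite growth. Vehicle mice had 19.4, 15.9, 17.2 and 17.1 CPM, and 24 h mice 17.8, 20.5, 25.4 and 21.9 CPM. The 48 h mice had 16.2, 15.2, 19.6 and 20.5 CPM, and the 7 days mice 9.48, 14.9, 10.2 and 10.2 CPM. Every 7 days mouse was below every mouse of the other 3 groups. A joint test of the 4 groups called Nrn1 (adjusted p = 0.0295), as it did Btg2 (adjusted p = 0.0166) and Sik1 (adjusted p = 0.0234). Leaving aside Sik1, which entered the test only through DOI mice, 2 of 9 members were called there, where 18.8% of all genes were. The pairwise differences were not called: the log2 fold change at 7 days was -0.64 against vehicle (SE 0.22, edgeR p = 0.00858, adjusted p = 0.154), -0.94 against 24 h (SE 0.22, adjusted p = 0.131) and -0.68 against 48 h (SE 0.22, adjusted p = 0.172). Of its exon bases, 501 (22.28%) lie on exons of Fars2 on the other strand. With strand and overlap options at their defaults, the counting program assigns a read that meets exons of both genes to neither, so the Nrn1 count may leave out reads from there.

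Nptx2 (chr5:144545902-144557478, plus strand) encodes a secreted pentraxin that clusters AMPA receptors at synapses. It had 10.3, 3.98, 5.60 and 3.31 CPM in vehicle, 7.31, 12.8, 6.09 and 6.75 CPM at 24 h, 6.08, 4.85, 8.004 and 9.57 CPM at 48 h, and 4.91, 10.9, 4.55 and 6.58 CPM at 7 days. Each DOI group overlapped vehicle, and the log2 fold changes of 0.50, 0.30 and 0.21 (SE 0.40, 0.41 and 0.40) were not called (adjusted p = 0.376, 0.600 and 0.825). Fits that each left out 1 mouse gave 0.21 to 0.93 at 24 h and 0.10 to 0.73 at 48 h, and 0 of 8 called it at either time. Its paralog Nptx1 rose, by a log2 fold change of 1.47 at both times (SE 0.26, adjusted p = 0.00260 and 0.00182), from 115 ± 16.6 CPM in vehicle to 317 ± 41.4 at 24 h and 317 ± 73.4 at 48 h (SD, n = 4 each).

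Npas4 (chr19:4984355-4990316, minus strand) encodes a transcription factor that calcium entry induces in neurons, and it was among the least abundant members. Vehicle mice had 0.567, 0.114, 4.22 and 0.681 CPM, from 6, 1, 43 and 7 counts. At 24 h they had 1.37, 2.53, 3.55 and 4.14 CPM, at 48 h 4.06, 4.02, 3.71 and 3.59 CPM, and at 7 days 2.54, 3.03, 0.701 and 3.36 CPM. Of the vehicle mice 3 were below every mouse at 24 h and 48 h, and mouse 3 was above all of them. With all mice edgeR called no difference in the main fit: the log2 fold change was 1.04 at 24 h (SE 0.71, adjusted p = 0.291), 1.44 at 48 h (SE 0.71, adjusted p = 0.129) and 0.77 at 7 days (SE 0.71, adjusted p = 0.611). Of 15 other settings with all mice, 2 called Npas4 higher at 48 h and 0 called it at 24 h. Without vehicle mouse 3 the log2 fold change was 2.62 at 24 h, 3.02 at 48 h and 2.35 at 7 days. That mouse was the 1 vehicle mouse above the level of the filter on low counts. Without it Npas4, like Sik1, was tested only through its DOI mice. The edgeR adjusted p there (0.0177 at 24 h, 0.00883 at 48 h and 0.192 at 7 days) do not support a rise.

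Sik1 (chr17:31844250-31855804, minus strand) encodes a salt-inducible kinase that acts on the CREB coactivators and class IIa histone deacetylases. Vehicle mice held 1, 3, 3 and 1 counts, at or under the floor of 3 counts. At 24 h there were 2, 8, 19 and 15 counts (0.305, 1.19, 2.41 and 1.78 CPM) and at 48 h 64, 8, 8 and 14 counts (9.27, 1.34, 1.19 and 1.86 CPM). At 7 days there were 5, 6, 0 and 9 counts, where 0 allows up to 0.350 CPM in that mouse. All 4 mice at 48 h were above vehicle, 24 h and 7 days overlapped it, and 48 h mouse 1 was far above the rest in both libraries (28 and 36 counts). Sik1 was called at 24 h (edgeR adjusted p = 0.0460) and at 48 h (adjusted p = 0.00702). At 24 h 1 of 8 fits that each left out 1 mouse kept the call (adjusted p of 0.0383 to 0.120), and it was lost with the 32 libraries under duplicateCorrelation (adjusted p = 0.190) and with the replicate block by mouse number (adjusted p = 0.0751). At 48 h duplicateCorrelation lost it too (adjusted p = 0.0775). Because the DOI mice alone brought Sik1 past the filter, these p-values alone do not support a rise. In the fit with no filter on low counts its adjusted p was 0.0304 at 24 h and 0.000646 at 48 h. Its summed level was 7.40-fold that of vehicle at 24 h (44 against 8 counts, 95% interval 3.44 to 18.2) and 17.2-fold at 48 h (94 against 8 counts, 95% interval 8.40 to 41.1), with exact binomial intervals that cover counting error only. They leave out the spread between mice, and 64 of the 94 counts at 48 h came from mouse 1. Without 48 h mouse 1 the fitted log2 fold change at 48 h was 2.75 in place of 3.97. That fit filtered low counts in the same way, so its edgeR adjusted p (0.0367) alone does not support a rise either. The filter's level was 1.26 CPM, and Sik1 reached it in 0 vehicle, 2 of the 24 h, 3 of the 48 h and 1 of the 7 days mice.

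Among the nuclear feedback proteins, Btg2 and Ier2 fell at 48 h. Btg2 (chr1:134075170-134079120, minus strand), an antiproliferative regulator that recruits the mRNA deadenylase, had 55.6, 38.7, 133 and 40.6 CPM in vehicle. The 24 h mice had 18.9, 31.3, 37.9 and 31.8 CPM, the 48 h mice 13.8, 17.1, 13.04 and 23.5 CPM, and the 7 days mice 91.9, 32.8, 55.8 and 20.0 CPM. Every mouse at 24 h and 48 h was below every vehicle mouse, while the 7 days mice overlapped the 3 other groups. At 48 h Btg2 fell by 1.99 on the log2 scale (SE 0.44, edgeR adjusted p = 0.00436), from 66.9 ± 44.6 to 16.9 ± 4.79 CPM (SD, n = 4 each). Without vehicle mouse 3 it fell by 1.41 and was still called (adjusted p = 0.0184). It was called in all 8 fits that each left out 1 mouse. At 24 h the log2 fold change of -1.16 (SE 0.42) missed the threshold (adjusted p = 0.0535). It passed in 7 of 15 other settings, among them DESeq2 (0.0279) and limma voom (0.0314), and in 2 of 8 fits that each left out 1 mouse. Without vehicle mouse 3 the log2 fold change at 24 h was -0.58 (adjusted p = 0.290). At 7 days, with all mice, it was -0.41 (SE 0.42, adjusted p = 0.642).

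Ier2 (chr8:84661331-84662854, minus strand, a single exon), an immediate early nuclear protein, had 5.19, 4.66, 11.3 and 4.77 CPM in vehicle. At 24 h the mice had 2.28, 2.08, 5.45 and 1.89 CPM, at 48 h 1.45, 3.52, 0.593 and 1.46 CPM, and at 7 days 8.38, 0.784, 5.60 and 1.54 CPM. All 48 h mice were below all vehicle mice, 24 h mouse 3 lay within vehicle, and at 7 days mice 2 and 4 were below vehicle. At 48 h Ier2 fell by 1.89 on the log2 scale (SE 0.67, edgeR adjusted p = 0.0394). Without vehicle mouse 3 it fell by 1.47 (adjusted p = 0.128), and 1 of 8 fits that each left out 1 mouse kept the call. The log2 fold change was -1.14 at 24 h (SE 0.64, adjusted p = 0.197) and -0.65 at 7 days (SE 0.62, adjusted p = 0.624).

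Gadd45b (chr10:80930073-80932204, plus strand), a growth arrest and DNA damage protein linked to active DNA demethylation in neurons, had 12.7, 11.6, 15.2 and 9.93 CPM in vehicle. It had 5.94, 6.40, 11.2 and 11.5 CPM at 24 h, 9.42, 6.19, 6.52 and 10.2 CPM at 48 h, and 15.0, 12.0, 6.42 and 12.9 CPM at 7 days. The groups overlapped. The log2 fold changes of -0.50, -0.61 and -0.10 (SE 0.32, 0.32 and 0.31) were not called (adjusted p = 0.257, 0.150 and 0.899). Of the 4 genes with promoter windows shown above, the 3 whose windows hold CRE letters, Btg2, Npas4 and Homer1, had log2 fold changes of -1.99, 1.44 and 0.17 at 48 h, the last 2 not called, and Gadd45b, with none, had -0.61, also not called.

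**Figure D3:**
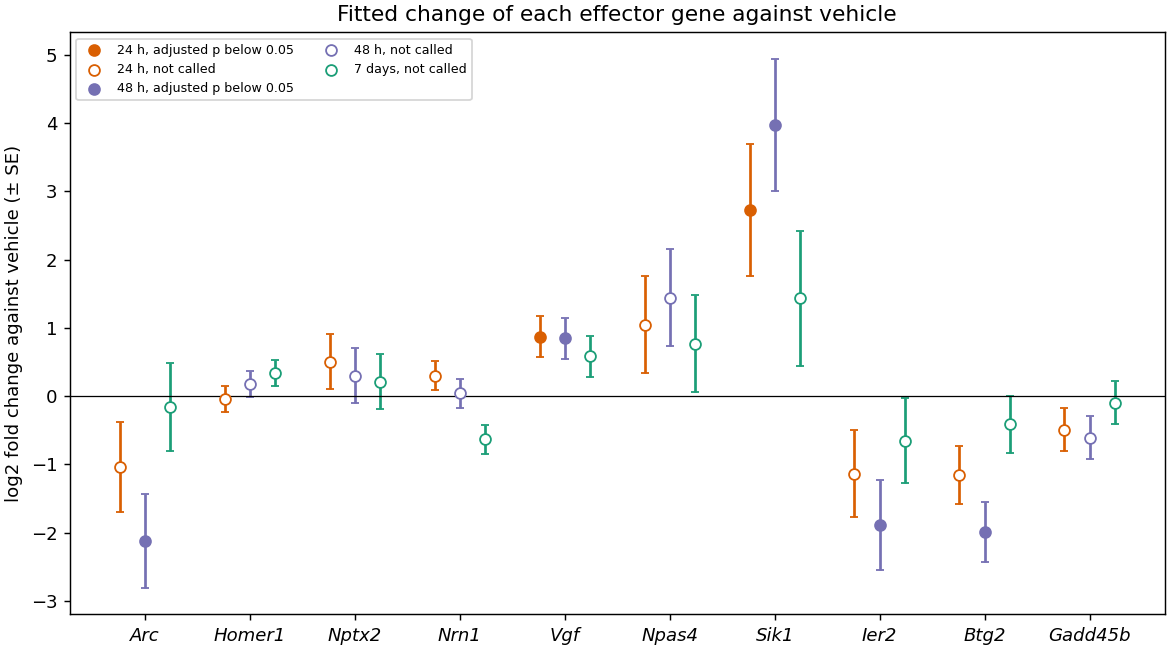
Fitted log2 fold change of each effector gene against vehicle at 24 h, 48 h and 7 days, with bars of ± 1 SE. Filled points are called at an adjusted p below 0.05: Vgf and Sik1 at 24 h, and Arc, Vgf, Sik1, Ier2 and Btg2 at 48 h. No point is filled at 7 days.

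Counted by groups of mice that do not overlap, 1 member was higher (Vgf) and 1 lower (Btg2) at 24 h, where 35.7% of all genes did not overlap. At 48 h 2 were higher (Vgf and Sik1, the latter tested only through its DOI mice) and 2 lower (Ier2 and Btg2), against 38.1% of all genes. At 7 days 1 was lower (Nrn1), against 5.85% of all genes. The times after DOI were also compared with each other. Of the 10 members 0 were called between 48 h and 24 h (0% of all genes, with 0 members and 1.88% of all genes at an unadjusted p under 0.05), 0 between 7 days and 24 h (0.00557% of all genes, which is 1 gene, Drd1, with 1 member and 14.2% of all genes at an unadjusted p under 0.05) and 0 between 7 days and 48 h (0% of all genes, with 4 members and 16.5% of all genes at an unadjusted p under 0.05). Those 4 were Btg2, with a log2 fold change of 1.57 (SE 0.43, edgeR adjusted p = 0.137), Arc with 1.96 (SE 0.68, adjusted p = 0.187), Sik1 with -2.54 (SE 0.88, adjusted p = 0.187) and Nrn1. At an adjusted p these differences were not distinguishable, which does not show that the times were alike.

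Vehicle mouse 3 was the highest of its group in 6 of 10 members (Arc, Npas4, Homer1, Ier2, Btg2 and Gadd45b), 24 h mouse 3 in 5 (Arc, Nrn1, Sik1, Ier2 and Btg2), 48 h mouse 4 in 5 (Arc, Nptx2, Nrn1, Btg2 and Gadd45b) and 7 days mouse 1 in 4 (Arc, Ier2, Btg2 and Gadd45b). In each group 1 mouse was thus the highest for both Arc and Btg2. Over the 16 mice, log2 CPM of Arc and Btg2 had a Pearson r of 0.86 (permutation p = 6.0e-05, adjusted over 45 pairs 0.00270) and a Spearman rho of 0.77 (permutation p = 0.000960, adjusted 0.0216). Without the 2 mice farthest from the median of Arc, vehicle mouse 3 and 7 days mouse 1, r was 0.68. Taken within groups, as deviations from the group means, r was 0.84 (permutation within groups p = 0.00231, adjusted 0.0988). For Ier2 and Btg2 r was 0.81 pooled (permutation p = 0.000130, adjusted 0.00292) with a rho of 0.82 (permutation p = 0.000160, adjusted 0.00720), 0.70 without the 2 farthest mice, and 0.72 within groups (permutation p = 0.0118, adjusted 0.106). For Arc and Ier2 r was 0.65 pooled (permutation p = 0.00542, adjusted 0.0473) with a rho of 0.56 (permutation p = 0.0262, adjusted 0.0982), 0.38 without the 2 farthest mice, on which this relation rests, and 0.60 within groups (permutation p = 0.0206, adjusted 0.146). For Nptx2 and Vgf r was 0.72 pooled (permutation p = 0.00184, adjusted 0.0276) with a rho of 0.64 (permutation p = 0.00942, adjusted 0.0665), 0.54 without the 2 farthest mice, and 0.70 within groups (permutation p = 0.00748, adjusted 0.0988). Of the 45 pairs 7 passed the adjusted threshold pooled and 0 within groups, where 9 had an unadjusted p under 0.05. Besides the pairs above, those passing pooled were Npas4 and Sik1 (r = 0.68, permutation p = 0.00320, adjusted 0.0360) and Vgf and Sik1 (r = 0.64, permutation p = 0.00736, adjusted 0.0473). A negative pair, Vgf and Ier2, passed too (r = -0.66, permutation p = 0.00660, adjusted 0.0473). The pooled values include the differences between groups.

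Among 10874 other genes whose mean log2 CPM was 3 or more, the gene most like each member over the 16 mice was found by the Pearson r of log2 CPM. For Arc it was Btg2 (r = 0.86), and for Btg2 it was Dusp1 (r = 0.93), a dual-specificity phosphatase. For Ier2 it was Lrrc28 (r = 0.92), for Sik1 Synpo (r = 0.92), for Vgf Tmem130 (r = 0.91), for Npas4 Pgrmc2 (r = 0.89), for Gadd45b Triqk (r = 0.85), for Homer1 Brms1l (r = 0.82), for Nptx2 Ntrk2 (r = 0.80), the receptor of BDNF, and for Nrn1 Prkg1 (r = 0.79). These values are the highest of many and include the group differences and depth that the mice share.

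The other genes of the pathway showed both directions as well. Of 22 upstream regulators, 5 rose and 1 fell at 24 h, and 7 rose and 1 fell at 48 h, which is 27.3% and 36.4% of them, where 24.2% and 30.1% of all genes were called. Their median log2 fold change was 0.46 and 0.53, against 0.03 and 0.02 for all genes. Crtc1, a coactivator of CREB and a target of the salt-inducible kinases, rose by a log2 fold change of 1.76 at 24 h (SE 0.27, edgeR adjusted p = 0.00159) and 1.69 at 48 h (SE 0.27, adjusted p = 0.00155). It had 50.5 ± 3.65 CPM in vehicle, 171 ± 49.9 at 24 h and 162 ± 33.9 at 48 h (SD, n = 4 each). Cacna1c, an L-type calcium channel, rose by 1.10 at 24 h (SE 0.22, adjusted p = 0.00366) and 1.15 at 48 h (SE 0.22, adjusted p = 0.00233). Mrtfb, a coactivator of SRF, rose by 0.90 at 24 h (SE 0.19, adjusted p = 0.00415) and 0.99 at 48 h (SE 0.19, adjusted p = 0.00226).

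Of 44 other activity-regulated genes 39 were tested (Fosb, Pim1, Klf4, Maff and Spry4 were too low). At 24 h 5 rose and 3 fell, and at 48 h 3 rose and 9 fell, which is 20.5% and 30.8% of those tested and near the 24.2% and 30.1% of all genes. Their median log2 fold change was 0.13 and -0.32, against 0.03 and 0.02 for all genes. The nuclear receptor Nr4a1 rose by a log2 fold change of 2.51 at 24 h (SE 0.51, edgeR adjusted p = 0.00392) and 2.17 at 48 h (SE 0.51, adjusted p = 0.00583). In CPM it was 5.10, 6.25, 17.1 and 4.77 in vehicle, 25.9, 43.5, 54.1 and 65.5 at 24 h, 49.5, 28.1, 28.5 and 44.0 at 48 h, and 12.6, 49.6, 10.7 and 52.6 at 7 days. The 24 h and 48 h mice did not overlap vehicle, and the 7 days mice 2 and 4 were within the range of the 24 h mice. The clock gene Per1 rose too, by 1.92 at 24 h (SE 0.32, adjusted p = 0.00196) and 1.86 at 48 h (SE 0.32, adjusted p = 0.00171). In the other direction, the kinase gene Plk2 fell by 1.05 on the log2 scale at 24 h (SE 0.24, adjusted p = 0.00651) and 0.96 at 48 h (SE 0.24, adjusted p = 0.00787). Fbxo33 fell by 0.76 at 24 h (SE 0.18, adjusted p = 0.00756) and 0.73 at 48 h (SE 0.18, adjusted p = 0.00711). The zinc finger gene Klf10 fell by 0.97 at 24 h (SE 0.30, adjusted p = 0.0283) and 1.32 at 48 h (SE 0.31, adjusted p = 0.00553). Dusp1 fell by 1.58 at 48 h (SE 0.38, adjusted p = 0.00658), and its log2 fold change of -1.02 at 24 h (SE 0.37, adjusted p = 0.0537) was not called. Dusp1 had 103, 79.7, 245 and 82.4 CPM in vehicle, so vehicle mouse 3 was the highest there as it was for Arc and Btg2.

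**Figure D4:**
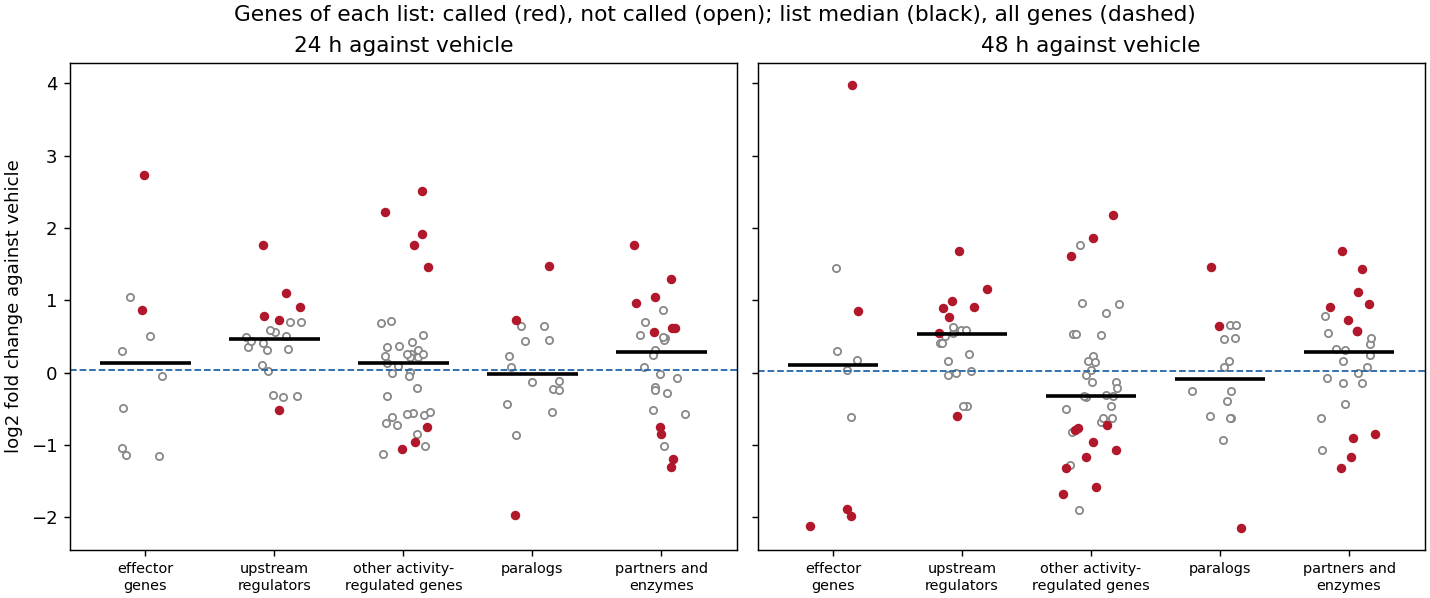
Log2 fold change against vehicle at 24 h and 48 h of each gene of the effector list and of 4 related lists. Red points are called at an adjusted p below 0.05, open points are not, black lines are list medians and the dashed line is the median of all genes. At 48 h the other activity-regulated genes have a median of -0.32, with 9 called lower and 3 higher.

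Of 19 paralogs of the members 16 were tested (Homer3, Nrn1l and Btg4 were too low), and at 24 h and at 48 h 2 rose and 1 fell. That is 18.8% of the tested paralogs at each time, below the 24.2% and 30.1% of all genes. Their median log2 fold change was -0.02 and -0.09. The 2 that rose were Nptx1 and Npas3 (0.72 at 24 h, SE 0.23, edgeR adjusted p = 0.0277, and 0.64 at 48 h, SE 0.23, adjusted p = 0.0389). Ier5l fell by 1.97 on the log2 scale at 24 h (SE 0.48, adjusted p = 0.00926) and fell by 2.14 at 48 h (SE 0.49, adjusted p = 0.00516). Its level was 34.7, 29.7, 33.0 and 30.9 CPM in vehicle and 48.6, 7.40, 34.8 and 9.51 CPM at 7 days, where mice 1 and 3 were at or above the highest vehicle mouse and mice 2 and 4 below the lowest.

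Of 28 binding partners and processing enzymes of the members, 7 rose and 4 fell at 24 h, and 8 rose and 4 fell at 48 h. That is 39.3% and 42.9% of them, where 24.2% and 30.1% of all genes were called, and their median log2 fold change was 0.28 at both times. For the Homer scaffold, Shank2 rose by a log2 fold change of 1.29 at 24 h (SE 0.25, edgeR adjusted p = 0.00315) and 1.43 at 48 h (SE 0.25, adjusted p = 0.00170). Its relative Shank1 fell by 1.31 on the log2 scale at 24 h (SE 0.37, adjusted p = 0.0167) and by 1.32 at 48 h (SE 0.37, adjusted p = 0.0135). Gria2, the AMPA receptor subunit GluA2 whose surface level Arc lowers, fell by 0.85 on the log2 scale at 24 h and at 48 h (SE 0.20, adjusted p = 0.00690 and 0.00553). Cpe, the carboxypeptidase that trims neuropeptide precursors, fell by 0.76 at 24 h (SE 0.24, adjusted p = 0.0303) and by 0.91 at 48 h (SE 0.24, adjusted p = 0.0106). At 7 days 0 genes of the 4 lists were called by edgeR, with 8 of 22, 7 of 39, 1 of 16 and 6 of 28 at an unadjusted p under 0.05 in the order given here, where 16.8% of all genes reached it. The 4 lists hold 107 different genes, 6 of them in 2 lists.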

How the data were processed

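RNA of NeuN+ nuclei was sequenced with SMART-seq2 chemistry and Nextera XT libraries, per the labels' protocols. H3K27ac samples were not analysed here. The deposited files hold raw counts, made by the authors with featureCounts v2.0.0 over GRCm38 exons, per the file headers, with options for strand, pairs, multi-mapping and overlap left at their defaults. The submitters' processing notes also name mm10, Trim Galore 0.6.5 and Bowtie2 2.4.1, with no role given. For 3 mice the header carries another mouse number than the label, and the labels were used.

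The 2 libraries of a mouse, which differed by more than sampling noise (chi-square per degree of freedom 1.38 to 2.78), were summed. Genes passing filterByExpr (17941) were TMM-scaled and fitted with edgeR 4.0.16 (glmQLFit, glmQLFTest, R 4.3.3) over all 4 groups at once. P-values were adjusted by Benjamini-Hochberg over all genes. Contrasts against vehicle share the vehicle mice. Standard errors come from the fold change and its F statistic. Log2 CPM used a prior count of 2. The floor of 3 counts was 0.254 to 0.502 CPM and covers counting error only, as do intervals, since reads carry no molecular identifiers.

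The members and gene lists were chosen with earlier results of these data known. Named are the 10 members, in each list the 2 genes with the smallest p per direction and contrast, and the gene most like each member. A listed gene that met this rule is not reported here. Drd1, Gfap, Aldoc, Slc1a3, Adora2a and Fars2 were named after their values were seen. Alternatives were DESeq2 1.42.0, limma 3.58.1, other scalings, filters and covariates, single libraries, thinned counts and left-out mice.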

Additional observations from a re-analysis of the deposited data

Results flagged for a closer look

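In 40 sets of 4 mice (10 genes in 4 groups), 6 held a mouse that stood far from the other 3 by Dixon's 95% criterion, and chance flags about 1 in 20 sets, which is 2 of 40. In vehicle mouse 3, Arc was at 290.0 CPM against 43.2 in the next mouse, Npas4 at 4.22 against 0.681, and Ier2 at 11.3 against 5.19. In 24 h mouse 3, Ier2 was at 5.45 CPM against 2.28. In 48 h mouse 1, Sik1 was at 9.27 CPM against 1.86. In 7 days mouse 2, Nrn1 was at 14.9 CPM against 10.2. The 3 values of vehicle mouse 3 come from the same nuclei and are not independent of each other.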

How the results depend on the processing

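Members called at 24 h (2 of 10, both higher, with 4346 of all genes) were 4 with limma voom with quality weights (2 higher, with 7236 of all genes). They were 1 with library 2 alone (3711 genes) and with the 32 libraries under duplicateCorrelation (5361 genes), where the gene called was Btg2, lower. They were 1 with thinned counts (Sik1, higher, with 4209 genes), and 0 with library 1 alone (3975 genes), with the 18S share or the mitochondrial share as a covariate and at a threshold of 0.01 (1404 genes). With no filter 3 were called, Sik1 higher and Arc and Btg2 lower. Members called at 48 h (5, 2 of them higher, with 5395 of all genes) were 3 with library 1 alone (4900 genes) and 2 with library 2 alone (4588 genes), all lower and of 9 members tested, 2 at a threshold of 0.01 (1 higher, with 2088 genes), and 0 with either covariate. In the 4-group test (3) they were 1 with library 2 alone and 0 with either covariate or at 0.01. Leaving out 1 mouse gave 0 to 1 members at 24 h, 2 to 3 at 48 h, 0 at 7 days and 1 to 4 in the 4-group test. At 7 days no setting called a member. With the replicate block by mouse number the counts were 1 at 24 h, 3 at 48 h, 0 at 7 days and 1 in the 4-group test. Same-numbered mice did not deviate together (mean correlation -0.036 over 24 pairs, -0.28 to 0.24), so the numbers do not pair the mice.

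Adjusting for the 18S share turned 17 log2 fold changes. At 24 h they became 0.48 for Arc, -0.17 for Npas4, -0.57 for Nptx2, -0.15 for Nrn1, -0.0081 for Vgf, -0.16 for Sik1, 1.69 for Ier2 and 0.14 for Btg2. At 48 h they became -0.51 for Homer1, -0.84 for Nptx2, -0.43 for Nrn1, -0.066 for Vgf and 1.00 for Ier2, and at 7 days 0.26 for Arc, -0.30 for Nptx2, -0.099 for Sik1 and 0.015 for Ier2. None was called there. The mitochondrial share turned Homer1 (-0.30), Nptx2 (-0.18) and Nrn1 (-0.20) at 48 h and Nptx2 (-0.028) at 7 days. Arc at 7 days turned with duplicateCorrelation (0.36), the replicate block (0.30) and detected genes as a covariate (0.080). Homer1 at 24 h turned with total counts only (0.057) and library 1 alone (0.11), and Nrn1 at 48 h with no filter (-0.022) and library 1 alone (-0.020). The cause was not tested. Of the fold changes of single members under settings other than left-out mice, 373 kept their direction and their side of the threshold, 29 lost the call, 11 gained one and 28 turned, 4 of which had been called (Vgf at 24 h and 48 h, Sik1 at 24 h and Ier2 at 48 h, all with the 18S share).

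Leaving out 1 mouse turned 13 fold changes, none of them called. The ranges were -1.52 to 0.42 for Arc and -0.11 to 0.046 for Homer1 at 24 h, and -0.051 to 0.11 for Nrn1 at 48 h. At 7 days they were -0.67 to 1.30 for Arc, -0.12 to 0.65 for Nptx2, -0.88 to 0.16 for Btg2 and -0.24 to 0.11 for Gadd45b. Scaling by total counts moved the median of all genes from 0.03 to 0.14 at 24 h and from 0.02 to 0.12 at 48 h, and called the same number of members. Counts of 1 to 3 for Sik1 in vehicle limit its fold change.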
